A study of Mus musculus with 9 samples.

Results

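The cytosolic ribosomal protein genes were taken from the count table as the rows whose mouse symbol is Rpl or Rps with a number and an optional short suffix, is Rplp0, Rplp1 or Rplp2, or is Rpsa. Rows named as pseudogenes (-ps) and the Rps6k kinases were left out. The rule used no measured value and gave 89 of the 56980 rows, 53 named for the large and 36 for the small ribosomal subunit. An older mouse annotation lists 83 of them as protein coding and 6 as pseudogenes (Rps12l1, Rps4l, Rpl32l, Rps3a2, Rps3a3 and Rpl6l).

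RNA was measured in cultured oligodendrocyte progenitor cells (OPCs), the dividing precursors of myelinating glia, by sequencing polyadenylated RNA in 9 libraries. All groups carried the genotype Trp53 -/- and were grown with 10 ng/mL PDGF-AA. Group p53n has no further agent in its labels. Group BB-p53n DMSO expressed PDGF-BB, a growth factor that binds PDGF receptors, and received the vehicle DMSO (the DMSO group below), and group BB-p53n EZH2i was the same PDGF-BB cells with 5 µM tazemetostat, an inhibitor of the histone methyltransferase EZH2, for 48 hours (the tazemetostat group). Each group had 3 libraries. The labels do not give the animals' age or strain, how Trp53 was deleted, the construct behind PDGF-BB, or whether each library is its own culture. The p-values below therefore rest on a spread between libraries that may be technical. DMSO was given only to PDGF-BB cells.

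Ribosomal proteins fold onto ribosomal RNA to build the small subunit, which decodes the mRNA, and the large subunit, which joins the amino acids. In vertebrates their mRNAs begin with a C followed by a run of pyrimidines, the 5′ terminal oligopyrimidine tract, through which mTOR signalling and the protein LARP1 set how well they are translated. Most of these genes have spread through the genome as intronless, near-identical pseudogene copies, and a few have a second working gene, a paralogue, that is used in particular tissues.

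Libraries held 19471768 to 34557109 counts. Levels are given as CPM, counts in every 1000000 counts of a library whose size was scaled by its TMM normalisation factor. Trp53 was at 7.34 ± 0.853 CPM (mean ± SD, n = 3) in p53n, 13.6 ± 1.45 in the DMSO group and 14.3 ± 1.17 in the tazemetostat group. The Trp53 row counts every exon, and libraries of cells with an intact gene were not analysed here. The mouse Pdgfb row held 0 to 8 counts a library. The 8 OPC markers summed to 8319 to 8940 CPM in p53n, 6686 to 6774 in the DMSO group and 4874 to 5152 in the tazemetostat group, with 3 called higher and 4 lower with PDGF-BB and the same counts with tazemetostat. Pdgfra was at 1492 ± 89.7, 980.4 ± 20.8 and 514 ± 37.5 CPM and Gpr17 at 1904 ± 86.3, 132 ± 10.9 and 57.8 ± 6.54 CPM in the same order, whereas Sox10 was at 2.21 ± 0.292 CPM in p53n against 299.5 ± 16.4 in the DMSO group and 459 ± 9.6 in the tazemetostat group. The 5 astrocyte markers summed to 136 to 189 CPM in p53n, 34.4 to 37.4 in the DMSO group and 12.8 to 20.6 in the tazemetostat group. The 5 neuron markers summed to 535 to 544, 298 to 318 and 174 to 179 CPM, and of them Dcx was at -1.95, Tubb3 at 1.20 and Rbfox3 at 2.21 on the log2 scale with tazemetostat against DMSO. The 5 microglial markers stayed at or under 2.03 CPM in sum in every library, with C1qa at 0 in all 9. The female-specific RNA Xist held 80025, 73593 and 73711 counts in the p53n libraries and 1836, 1560 and 2108 in the DMSO libraries, and the Y-linked gene Ddx3y 9, 5 and 17 against 1796, 1453 and 1398. In the tazemetostat libraries Xist held 161, 53 and 366 counts and Ddx3y 332, 110 and 138, both below the DMSO libraries. The part of these differences, and of those in the markers, in the results below was not tested. PDGF-BB expression, vehicle and line cannot be told apart in comparisons with p53n.

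The sequences below are those the results turn on: start sites of paralogue, stalk and lowered members, and the stretch by which a gene and its copy can be told apart. The first set is the stretch around the annotated start of 7 members, from 15 bases before to 15 bases from the RefSeq start on GRCm38.p6, read along the gene's strand, with capitals marking a C followed by at least 4 pyrimidines that begins within 5 bases of the start.
Rps27 (chr3:90213634-90213663, minus strand): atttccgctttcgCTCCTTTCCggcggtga
Rps27l (chr9:66946071-66946100, plus strand): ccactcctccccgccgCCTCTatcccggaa
Rpl22 (chr4:152324421-152324450, plus strand): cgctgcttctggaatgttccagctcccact
Rpl22l1 (chr3:28805493-28805522, plus strand): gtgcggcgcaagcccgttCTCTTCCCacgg
Rpl15 (chr14:18270972-18271001, minus strand): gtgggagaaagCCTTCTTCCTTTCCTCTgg
Rplp2 (chr7:141447636-141447665, plus strand): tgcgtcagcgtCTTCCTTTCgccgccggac
Rplp0 (chr5:115559452-115559481, plus strand): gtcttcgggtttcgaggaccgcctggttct
The windows of Rpl22 and Rplp0 held no such tract at the annotated start. Rpl22 and Rps27l have a further RefSeq start window, without a tract in either gene.

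The second set is a stretch of the coding sequence of Rplp0, coding positions 388 to 447 counted from the A of the start codon, beside the same stretch of its pseudogene copy Gm8730. Capitals mark the bases that differ.
Rplp0: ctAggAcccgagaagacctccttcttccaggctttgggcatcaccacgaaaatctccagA
Gm8730: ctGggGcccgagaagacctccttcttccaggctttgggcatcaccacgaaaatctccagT
Over the 954 coding bases with the stop codon, the copy differed at 12 positions (98.7% identity), A390G, A393G and A447T among them, with the base of Rplp0 first. A read pair that covers none of the 12 positions reads the same from both rows.

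The 89 members together took a small share of each library. They held 0.712%, 0.627% and 0.715% of the counts in the p53n libraries, 0.553%, 0.603% and 0.579% in the DMSO group, and 0.995%, 1.14% and 1.09% in the tazemetostat group. The 3 tazemetostat libraries stood above all others, and the 3 DMSO libraries below all others. Mean shares were 0.684% ± 0.05 (SD, n = 3), 0.578% ± 0.025 and 1.07% ± 0.073. By the exact two-sided permutation test p = 0.1 for each of the 3 comparisons (0.1 after Benjamini-Hochberg adjustment over them), the smallest value that 3 against 3 libraries can give. Over counts of tested genes scaled by TMM, the DMSO and p53n shares overlapped (exact two-sided permutation p = 0.2). A share of a library cannot tell a change in these mRNAs from a change in all other RNA, and if a culture held several cell types, fewer cells of a type and less RNA per cell cannot be told apart.

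**Figure D1:**
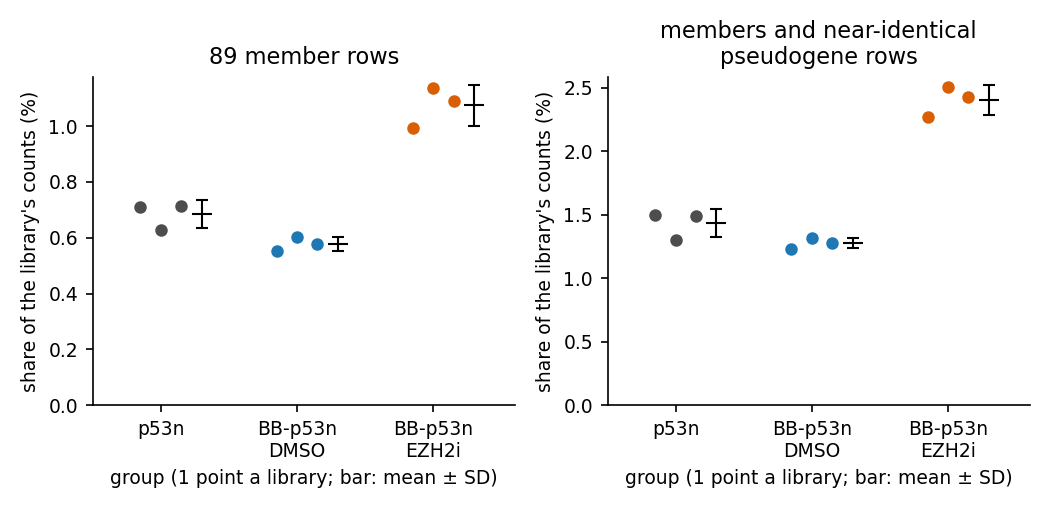
Share of each library's counts (percent) in the 89 member rows (left) and in the members plus 1058 near-identical pseudogene rows (right), 1 point a library with mean ± SD beside it. The tazemetostat libraries lie highest in both panels, at 0.995% to 1.14% on the left and 2.27% to 2.51% on the right.

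Counts were very unevenly spread over the members. Rpl8, of the large subunit's core, held 288112 counts over all libraries, and the 5 members with the most counts, Rpl8, Rpl4 and Rps3 among them, held 48.1% of all member counts. The median member held 2749 counts, 19 of 89 held at most 1000, and 5 were too low to test: Rps12l1 and Rpl10l at 0, Rpl39l at 1, Rpl3l at 6 and Rps4l at 24 counts over 9 libraries. On a scale per kilobase of exon, high mean levels were 931 CPM per kb for Rpl8, 367 for Rplp1, 352 for Rpl4 and 339 for Rps15. Among tested protein-coding members the lowest were 0.64 for Rpl24, 0.686 for Rpl35a and 0.795 for Rps13, although the ribosome holds 1 copy of nearly every one of these proteins.

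Levels were lower in members that share more coding sequence with other annotated genes. For each protein-coding member, the share of 75-base windows of its coding sequence found letter for letter in a transcript of another gene was computed, a measure chosen after the levels had been seen. Over 83 members the median share was 83.2%, and 23 members had every window in another gene. Rps3 shared none, Rpl8 5.4% and Rpl4 10.5%, whereas Rpl24 shared 99.2%. The 20 members under 50% had a median level of 96.9 CPM per kb, against 3.57 CPM per kb for the 63 at 50% or more. Across the 83 members Spearman's rho between level and share was -0.43, a description over genes that share the same libraries. Rpl41 stood outside the pattern with every window shared and 298 CPM per kb, but its coding sequence is very short, so its share rests on few windows. The table was counted with a minimum mapping quality of 20, a setting that commonly leaves out reads that fit several places equally well. How far this sets the levels was not tested, and levels between members are not read as mRNA abundance below.

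**Figure D2:**
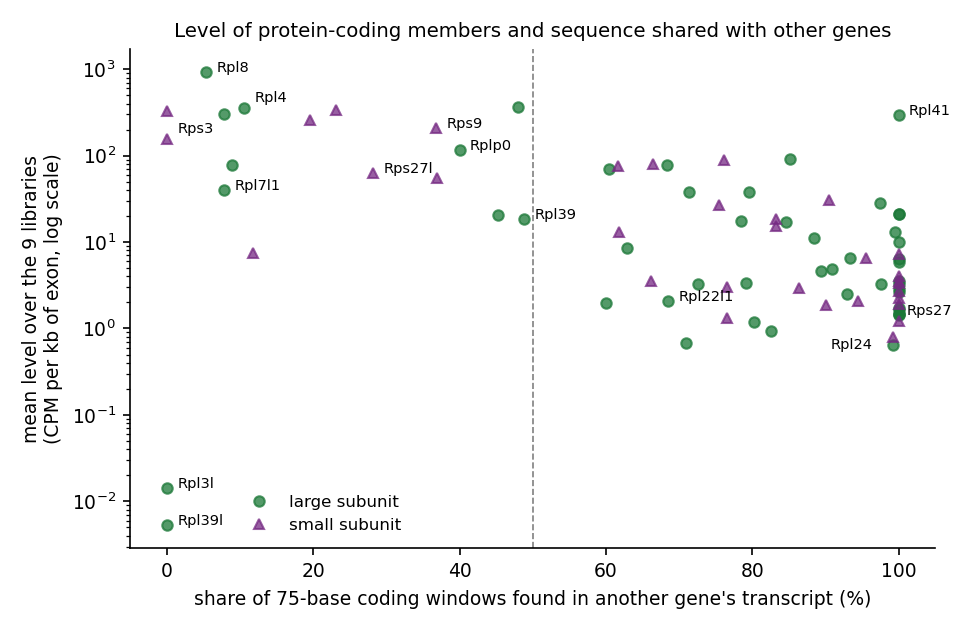
Mean level over the 9 libraries (CPM per kb of exon, log scale) of the protein-coding members with counts, against the share of 75-base coding windows (percent) found in another gene's transcript; circles are large and triangles small subunit members, and the dashed line marks 50%. Rpl8, Rpl4 and Rps3 are high at the left and Rpl24 is low at the right, while the near-silent paralogues Rpl3l and Rpl39l lie at the bottom left.

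The first comparison set PDGF-BB cells with DMSO against p53n cells. Of 84 tested members, 13 were higher and 19 lower in the DMSO group (adjusted p under 0.05, called below), and 52 were not called. Of all 17001 genes tested, 35.3% were higher and 34% lower, and 69.3% in either direction, so both counts, 15.5% and 22.6% of the members, were below the background. The median log2 fold change of the members was -0.06, beside -0.02 for all genes. Groups did not overlap for 45 of 84 members, 53.6%, beside 76.1% of all genes. Small and large subunit members had medians of -0.01 and -0.07.

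The split was sensitive to scaling. With upper-quartile scaling 9 members were higher and 35 lower, as the median of all genes moved to -0.16 and that of the members to -0.21. After each library's dependence of counts on GC content and length was fitted and taken out (GC and length correction below), 9 were higher and 39 lower, beside 31.7% and 40% of all genes (71.7% in either direction), with medians of -0.26 for the members and -0.12 for all genes. Without the third p53n library 12 members were lower, and the median was 0.08 for the members and 0.06 for all genes. The shares of all genes called with upper-quartile scaling or without this library are not reported here. The counts at those settings are therefore not read as particular to the members.

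Members of 2-fold or more change were few. Rplp0, the base of the stalk that recruits translation factors, read 461, 401 and 416 CPM in p53n, 41.5, 50.9 and 50.1 in the DMSO group and 83.6, 121 and 109 in the tazemetostat group. Its p53n libraries lay above all 6 others (log2 fold change -3.16 ± 0.13 SE, adjusted p = 7.23e-10). Rps13, of the small subunit, read 3.23, 3.71 and 3.66 CPM in p53n and 1.85, 1.6 and 1.17 in the DMSO group, without overlap (log2 fold change -1.19 ± 0.22 SE, adjusted p = 7.64e-05). Rps24 fell from 99.6 ± 14.2 to 57.5 ± 0.968 CPM (log2 fold change -0.79 ± 0.09 SE, adjusted p = 6.33e-08) and Rps15a by less (-0.62, adjusted p = 5.39e-06). Among the 6 members with the lowest fold changes, Rpl32l (-0.78) and Rpl24 (-0.69) did not pass the test. Rpl24 was called lower after GC and length correction (-0.94, adjusted p = 0.0312) and with its copies added (-0.23, adjusted p = 0.0166).

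The largest rises with PDGF-BB were smaller. Rpl27, of the large subunit, rose from 7.43, 7.58 and 8.71 CPM to 12.9, 14.5 and 14 (log2 fold change 0.80 ± 0.12 SE, adjusted p = 5.67e-06). Rpl12, a base protein of the stalk, rose from 7.18, 7.29 and 9.46 to 13.3, 13.5 and 13.5 CPM (log2 fold change 0.75 ± 0.13 SE, adjusted p = 4.41e-05), and the groups did not overlap for either gene. Rps27l, a paralogue of Rps27 known as a p53 target, rose in these p53-null cells from 30.4, 25.9 and 29.6 to 43.9, 50.2 and 45.1 CPM (log2 fold change 0.70 ± 0.09 SE, adjusted p = 4.72e-07). Rps19, the member most often mutated in Diamond-Blackfan anaemia, and Rps23, of the decoding centre, both had a log2 fold change of 0.67 (adjusted p = 0.00154 and 0.00228). Rpl10a rose by 0.64 (adjusted p = 8.43e-06) as a row of its own. Of the 4 X-linked members, Rpl10 alone was called (0.41, adjusted p = 0.00623), in a comparison where Xist differed as given above, and its part in the result was not tested. The call of Rpl10 was lost with upper-quartile scaling (0.41 became 0.27, adjusted p = 0.0626).

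Reads of several members were split with pseudogene rows, and for some the split differed between p53n and the PDGF-BB groups. Rplp0 (chromosome 5, 115697526 to 115701786, GRCm39) is a gene with introns, and Gm8730 (chromosome 8, 103591477 to 103592430) is a single-exon processed pseudogene. Rplp0 held 13288, 9638 and 9876 counts in p53n, 1389, 1720 and 1626 in the DMSO group and 2110, 2274 and 2294 in the tazemetostat group. Gm8730 held 1511, 1189 and 1045, then 8643, 9204 and 7958, then 12593, 11016 and 13238. The 2 rows traded places between p53n and both PDGF-BB groups, and did not do so between DMSO and tazemetostat. Their sum was 474 ± 34 CPM in p53n, 306 ± 15.1 in the DMSO group and 676 ± 82.5 in the tazemetostat group. With all 1058 near-identical pseudogene rows (at least 90% identity over at least 50% of a member's coding sequence) added to their members, Rplp0 with its copies was still lower in the DMSO group, by less (log2 fold change -0.46 ± 0.08 SE, adjusted p = 5.7e-05), and the Rplp0 row itself made up 76.2%, 11.7% and 11.4% of that sum in the 3 groups.

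**Figure D3:**
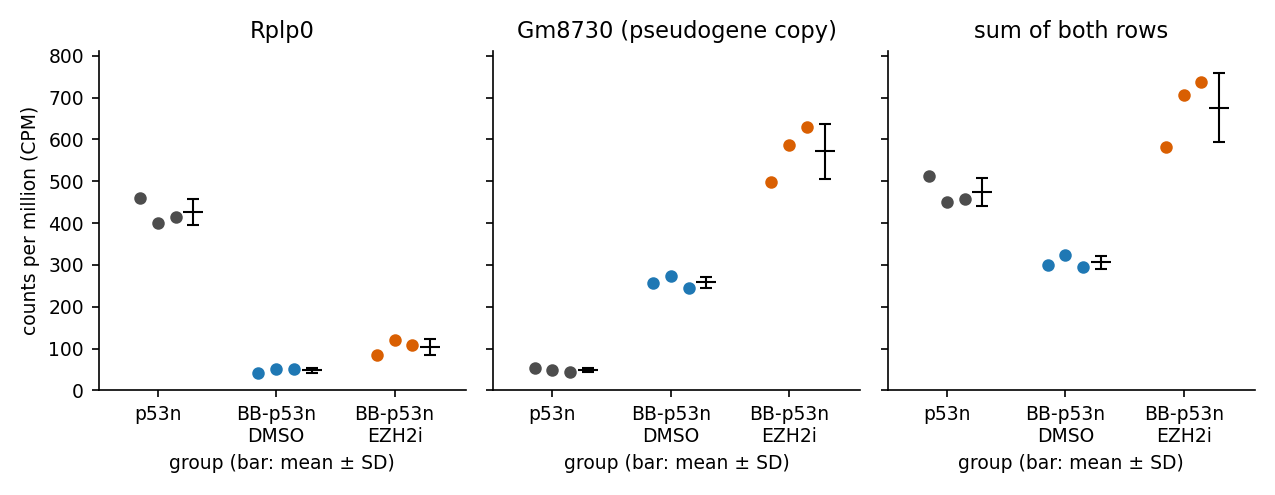
CPM of Rplp0, of its pseudogene copy Gm8730 and of their sum, 1 point a library with mean ± SD beside it, on 1 scale from 0. Rplp0 is above 400 CPM only in p53n and Gm8730 above 240 CPM only in the PDGF-BB groups, and the sum is highest in the tazemetostat group.

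Copies of Rps13 also moved in opposite directions, but in CPM the fall was larger than the rise. The copy Rps13-ps2 held 1345, 1036 and 1007 counts in p53n and 84, 101 and 98 in the DMSO group, whereas Rps13-ps1 held 12, 17 and 5 and 293, 396 and 314. Mean levels went from 44 to 2.84 CPM for Rps13-ps2 and from 0.444 to 10 CPM for Rps13-ps1. The summed Rps13 family remained lower in the DMSO group (log2 fold change -1.72 ± 0.11 SE, adjusted p = 1.24e-11). Rpl10a made up 5.14% of its family in p53n and 11% in the DMSO group, and the family was lower (-0.45, adjusted p = 0.000141) where the row was higher. The same held for Rpl3, of the peptidyl transferase centre (row 0.33, adjusted p = 0.00867, and family -0.52, adjusted p = 2.1e-06), and the call of its row was lost with upper-quartile scaling (0.19, adjusted p = 0.117) and after GC and length correction (0.13, adjusted p = 0.263). For Rpl12 the family value was 0.09 (adjusted p = 0.317), so the rise of the row was not called for the family. The share of a member in its family moved by more than 20 percentage points between p53n and the DMSO group for Rplp0 alone of 78 members with copy rows and counts in every group, and for none between DMSO and tazemetostat. Over 84 families, 18 were higher and 27 lower in the DMSO group, with a median of -0.06. Of all genes in the fit of single rows, 35.3% were higher and 34% lower, with a median of -0.02.

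The second comparison set tazemetostat against DMSO within the PDGF-BB cells. Of 84 tested members 62 were higher and 5 lower with tazemetostat, beside 37.3% and 35.6% of all genes (72.9% in either direction), and 17 were not called. The members' share of higher calls was 73.8%. Their median log2 fold change was 0.70, beside 0.02 for all genes, and 18 members were at least 2-fold higher and 0 at least 2-fold lower. Small and large subunit members had medians of 0.69 and 0.72. Groups did not overlap for 64 of 84, 76.2%, beside 75.3% of all genes.

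Fold changes in this comparison followed GC content and length, in the members as in all genes. Across 12786 expressed genes, Spearman's rho between GC content and log2 fold change was 0.73, and across the 84 members 0.56, and with exon length -0.43 and -0.28, both given as descriptions. The median GC content was 51.9% in the 62 members called higher and 43.2% in the 5 called lower. After GC and length correction, 39 members were higher and 5 lower, beside 28.3% and 29.2% of all genes (57.4% in either direction), and the median of the members was 0.24, beside -0.02 for all genes. Of 39 members called in both fits, 37 kept their direction, beside 7030 of 8202 among all genes. The exceptions among the members were Rps6, the target of S6 kinase (0.39, then -0.55 with adjusted p = 0.000179), and Rpl29 (0.74, then -0.27 with adjusted p = 0.000531). Without a filter on low counts Rps6 was not called (0.29, adjusted p = 0.0556). Whether the dependence on GC content and length is technical or biological was not tested.

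**Figure D4:**
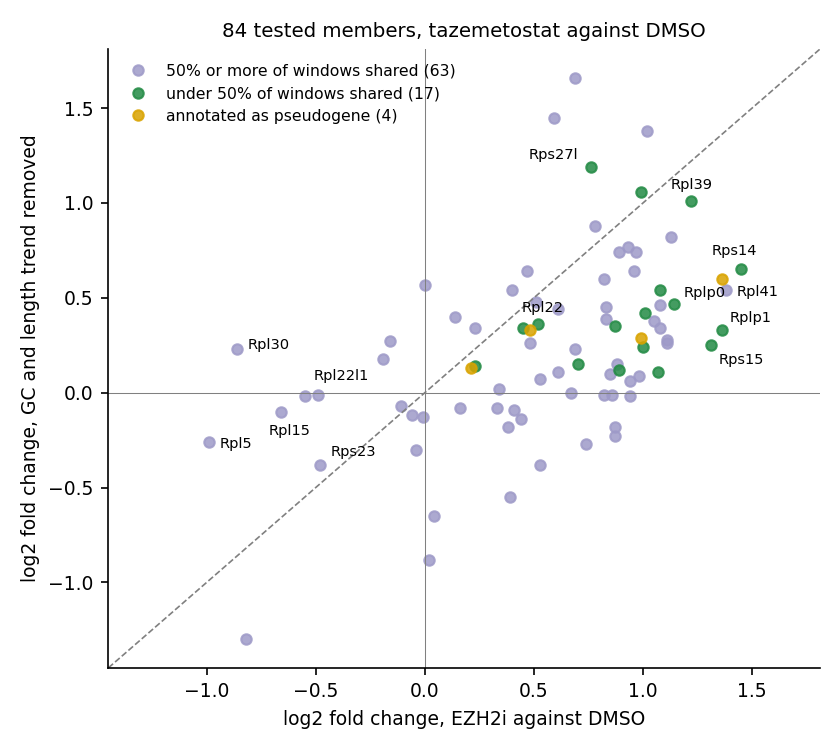
Log2 fold change with tazemetostat against DMSO of the 84 tested members, plain (horizontal) and after GC and length correction (vertical), coloured by the share of coding windows found in other genes; the dashed line marks equal values. Most points lie right of 0 and below the line, and none of the 5 members called lower in the plain fit (Rpl5, Rpl30, Rpl15, Rpl22l1 and Rps23) is called lower in the corrected one.

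The members with little shared sequence moved together. All 17 tested protein-coding members under 50% of windows shared were higher with tazemetostat, with a median of 1.00. After GC and length correction 14 of the 17 were higher and 0 lower, at a median of 0.35. Of all genes 37.3% were higher and 35.6% lower, and 28.3% and 29.2% after correction. The 63 members at 50% or more had 42 higher and 5 lower at a median of 0.59, and 23 and 5 after correction at 0.11. This division was made after the values had been seen and no test was made of the difference. Rps3, at the mRNA entry of the small subunit, rose from 499, 553 and 503 to 938, 1095 and 1055 CPM (log2 fold change 0.99 ± 0.08 SE, adjusted p = 4.82e-10, and 1.06 after correction). Rpl8, the most abundant row, rose from 926, 1058 and 914 to 1737, 2240.0 and 2115 CPM (log2 fold change 1.07 ± 0.09 SE, adjusted p = 1.42e-09), but after correction its change was 0.11 (adjusted p = 0.143). Rpl4, whose loop reaches into the exit tunnel, rose least of these, from 658, 669 and 671 to 788, 791 and 763 CPM (log2 fold change 0.23 ± 0.07 SE, adjusted p = 0.00412), and lost the call in the fit of these 2 groups alone, without a filter on low counts and without chromosomes X, Y and MT, with adjusted p from 0.0545 to 0.122.

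The 4 stalk members were all called higher with tazemetostat, beside 73.8% of all members and 37.3% of all genes. Rplp1, one of the acidic proteins that dimerise on the stalk, read 98.9, 122 and 113 CPM in the DMSO group and 231, 305 and 320.3 in the tazemetostat group, without overlap (log2 fold change 1.36 ± 0.12 SE, adjusted p = 1.99e-07). Its partner Rplp2 read 35.6, 37 and 35.6 and then 57.2, 64.7 and 78.6 CPM, also without overlap (log2 fold change 0.89 ± 0.10 SE, adjusted p = 1.49e-07). Rplp0 rose by 1.14 (adjusted p = 6.15e-06), and its family by 1.17 (adjusted p = 2.21e-10). Rpl12 was called with a small change (0.34, adjusted p = 0.022) that was lost without any 1 of the DMSO libraries or without the third tazemetostat library (adjusted p 0.0517 to 0.156), and was 0.02 after GC and length correction (adjusted p = 0.898). After GC and length correction, Rplp1 (0.33) and Rplp0 (0.47) remained called and Rplp2 did not (0.12, adjusted p = 0.221).

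The 6 members with the highest fold changes were Rps14, Rpl41, Rplp1, Rpl32l, Rps15 and Rpl39. Rps14, a small subunit gene whose loss in people is linked to anaemia, read 74.4, 84.7 and 74.5 CPM with DMSO and 181, 225 and 230.2 with tazemetostat (log2 fold change 1.45 ± 0.09 SE, adjusted p = 3.32e-11, and 0.65 after correction). Rpl41, a very short peptide between the subunits, read 197, 218 and 213 and then 445, 649.6 and 536 CPM (log2 fold change 1.38 ± 0.11 SE, adjusted p = 1.61e-07, and 0.54). Rps15, near the decoding centre, read 128, 152 and 134 and then 299, 372 and 357 CPM (log2 fold change 1.31 ± 0.09 SE, adjusted p = 7.6e-11, and 0.25). In these 3 genes every tazemetostat library lay above every DMSO library. Rpl39, of the exit tunnel, read 14.2, 19.4 and 16.7 and then 33.4, 50.1 and 34 CPM, without overlap (log2 fold change 1.22 ± 0.22 SE, adjusted p = 0.000869, and 1.01). Rpl32l, annotated as a pseudogene, rested on 121 counts in all (1.36, adjusted p = 0.0125) and lost the call without the third DMSO library, without the first tazemetostat library and after correction (adjusted p 0.0621 to 0.29).

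The 5 members called lower were all rows with much shared sequence, and the copy rows gave other directions for some. Rpl5, which with Rpl11 and 5S rRNA forms the particle that binds MDM2, read 7.7, 7.37 and 6.79 CPM with DMSO and 4.76, 2.98 and 3.14 with tazemetostat, all below DMSO (log2 fold change -0.99 ± 0.19 SE, adjusted p = 7.57e-05). The Rpl5 row was 2.48% of its family's counts, and the family was higher (log2 fold change 0.33 ± 0.07 SE, adjusted p = 0.000504). Its partner Rpl11 read 4.33, 2.87 and 4.04 and then 5.03, 3.67 and 6.52 CPM, overlapping (log2 fold change 0.44 ± 0.20 SE, adjusted p = 0.0563), with the family higher at 0.91 (adjusted p = 6.35e-10). The Rpl11 row was called higher without the first DMSO library (0.56, adjusted p = 0.0406) or the second tazemetostat library (0.62, adjusted p = 0.00498), with upper-quartile scaling (0.50, adjusted p = 0.0316) and with the replicate number as a block (0.43, adjusted p = 0.0397), and was at -0.14 after GC and length correction. Rpl30 (log2 fold change -0.86 ± 0.14 SE, adjusted p = 1.09e-05) and Rpl15 (log2 fold change -0.66 ± 0.08 SE, adjusted p = 5.07e-07) were also lower as families (-0.55 and -0.57), and after GC and length correction Rpl30 was at 0.23 (adjusted p = 0.0907) and Rpl15 at -0.10 (adjusted p = 0.207). Rps23 fell by less (-0.48, adjusted p = 0.0203), a call lost without the first or second DMSO library or the second tazemetostat library (adjusted p 0.0501 to 0.0728). Rpl24 (-0.82) and Rpl35a (-0.55) had negative values that did not pass the test (adjusted p = 0.106 and 0.229), and as families they were higher (0.79 and 0.51, adjusted p = 2.91e-08 and 0.00681). The Rpl24 row was called lower after GC and length correction (-1.30, adjusted p = 0.0171) and without the first tazemetostat library (-1.29, adjusted p = 0.0449), and the Rpl35a row without a filter on low counts (-0.66, adjusted p = 0.025).

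Over families, 74 of 84 were higher and 3 lower (Rpl15, Rpl30 and Rps23) with tazemetostat, and the median log2 fold change was 0.89. In the fit of single rows, 37.3% of all genes were higher and 35.6% lower. The family values are without GC and length correction. The 1058 copy rows alone went from 0.682%, 0.716% and 0.701% of the counts in the DMSO libraries to 1.28%, 1.37% and 1.33% with tazemetostat. Among single copies, Rpl10a-ps1 went from 226 ± 11.1 to 616 ± 96.8 CPM and Gm8730 from 258 ± 13.5 to 571 ± 66.5 CPM.

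Of the 7 members that are paralogues, 3 were expressed at a level that could be tested. Rps27l was the main row of its pair, with 28.6 ± 2.44, 46.4 ± 3.35 and 78.6 ± 5.96 CPM in p53n, the DMSO group and the tazemetostat group. Its tazemetostat libraries read 83, 71.8 and 81 CPM, above all DMSO libraries (log2 fold change 0.76 ± 0.08 SE, adjusted p = 7.13e-08), and after GC and length correction the change was 1.19 (adjusted p = 9.12e-12). Rps27, whose coding windows are all found in other genes, read 1.56 ± 0.332, 1.97 ± 0.109 and 3.55 ± 0.711 CPM (log2 fold change 0.86 ± 0.22 SE, adjusted p = 0.00171 for tazemetostat, and -0.01 after correction). Rps27l made up 94.9% ± 0.683, 95.9% ± 0.292 and 95.7% ± 0.537 (SD, n = 3) of the counts of both rows in the 3 groups.

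The rows of Rpl22 and Rpl22l1 had opposite calls with tazemetostat. Rpl22, an RNA-binding protein that represses the mRNA of its paralogue, read 265, 231 and 269 CPM in p53n, 162, 179 and 180.2 in the DMSO group and 249.5, 251 and 249 in the tazemetostat group. It fell with PDGF-BB (log2 fold change -0.55 ± 0.07 SE, adjusted p = 5.82e-07) and rose with tazemetostat (log2 fold change 0.52 ± 0.07 SE, adjusted p = 1.01e-06), to a level that overlapped p53n. Rpl22l1 read 5.28, 5.37 and 5.34 CPM in p53n, 3.61, 4.41 and 4.66 in the DMSO group and 3.21, 3.19 and 2.62 in the tazemetostat group, with no call in the first comparison (log2 fold change -0.33 ± 0.16 SE, adjusted p = 0.0694) and a lower call in the second (log2 fold change -0.49 ± 0.17 SE, adjusted p = 0.0158). In the first comparison Rpl22l1 was called lower with upper-quartile scaling (-0.48, adjusted p = 0.0117), total counts (-0.41, adjusted p = 0.0309), only the 2 groups (-0.32, adjusted p = 0.0495) and GC and length correction (-0.39, adjusted p = 0.0354). The lower call in the second was lost after GC and length correction (-0.01, adjusted p = 0.981), and without the third DMSO or the third tazemetostat library (adjusted p = 0.0742 and 0.0683). Most reads of the Rpl22l1 family lay in the copy Gm15421, at 42.9 ± 3.33, 22.1 ± 1.27 and 22.6 ± 0.811 CPM, and the family was lower with PDGF-BB (-0.88, adjusted p = 5.76e-09) and not called with tazemetostat (-0.03, adjusted p = 0.739).

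Rpl7l1, the large subunit paralogue of Rpl7, rose in both steps, from 102, 101 and 111 CPM to 132, 135 and 130.2 and then 179, 184 and 180.2 CPM (log2 fold change 0.34 ± 0.06 SE, adjusted p = 8.93e-05, and log2 fold change 0.45 ± 0.06 SE, adjusted p = 2.14e-06). The 3 groups did not overlap. Rpl7 fell and then rose, with 190.0, 153 and 187, then 119.7, 126 and 131, then 218, 301 and 249 CPM (-0.49, adjusted p = 0.00119, and 1.02, adjusted p = 1.26e-06). Rpl7l1 thus went from 37.3% ± 2.47 to 51.3% ± 1.29 and back to 41.7% ± 3.64 of the counts of both rows. The Rpl7 row held 53.9%, 53.8% and 54.1% of its family's counts in the 3 groups, and the Rpl7l1 row 97.9%, 98.1% and 98.1%. With copies added, mean levels were 328, 234 and 473 CPM for the Rpl7 family and 107, 135 and 185 CPM for that of Rpl7l1. Rpl10l and Rpl39l, known from the testis, Rpl3l, known from muscle, and Rps4l held 0 to 24 counts in all. A level of 3 counts was 0.0888 CPM in the largest library and 0.16 CPM in the smallest, and levels under that are not compared here.

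**Figure D5:**
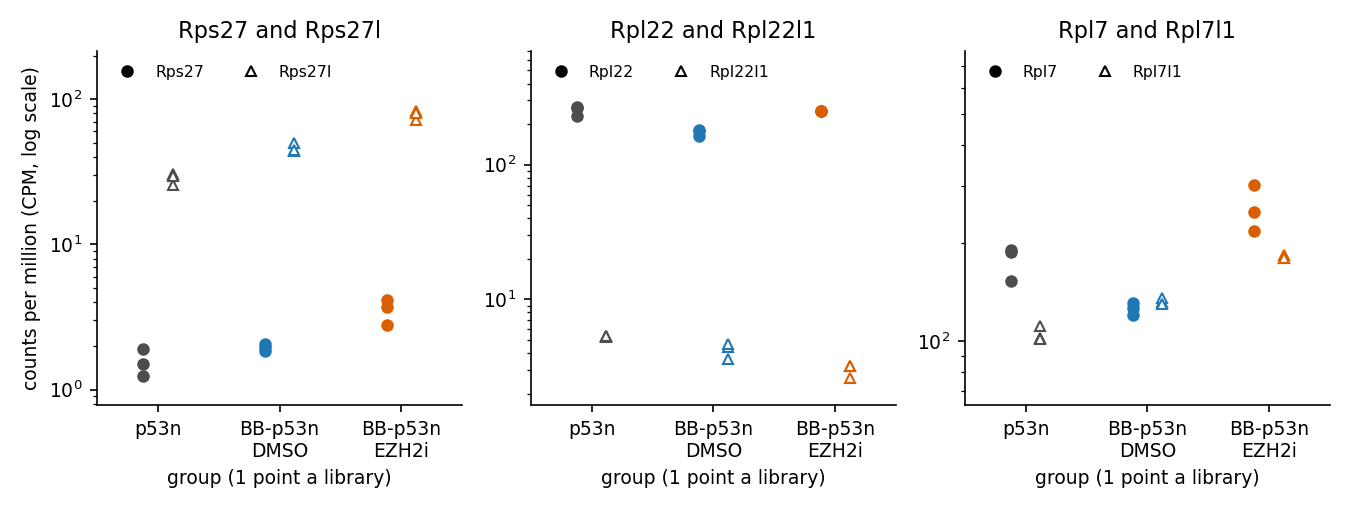
CPM (log scale) of 3 paralogues (open triangles) and their parent genes (filled circles) in every library, coloured by group. Rps27l is above Rps27 in every library, Rpl22 is above Rpl22l1, and Rpl7 and Rpl7l1 lie close together in the DMSO group.

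Other groups of members are given by their counts. The 4 X-linked members were all higher with tazemetostat, beside 73.8% of all members and 37.3% of all genes, from 0.47 for Rpl10 to 1.22 for Rpl39. Of them Rpl36a (0.48, adjusted p = 0.0188) lost the call without the first or second DMSO library, without the first tazemetostat library (adjusted p 0.0678 to 0.1) and after GC and length correction (adjusted p = 0.204). Rps4x, the X-linked small subunit gene, rose from 89.9, 104 and 95.6 to 151, 217 and 185 CPM (log2 fold change 0.93 ± 0.11 SE, adjusted p = 5.98e-06). Of the 10 members linked to Diamond-Blackfan anaemia, 4 were higher and 1 lower with tazemetostat and 5 were not called, beside 37.3% and 35.6% of all genes, at a median of 0.41. After GC and length correction 2 were higher and 0 lower, at a median of -0.10. Among them Rps24 fell with PDGF-BB, as given, and rose with tazemetostat to 86.7 ± 3 CPM (0.59, adjusted p = 3.09e-06). Of 6 members that line the exit tunnel 5 were higher and 0 lower, close to the 73.8% higher over all members and beside 37.3% of all genes. Rpsa, also known as a laminin receptor, rose from 72.4, 70.7 and 74.3 to 144, 161 and 172 CPM (log2 fold change 1.13 ± 0.08 SE, adjusted p = 9.16e-11). Rpl38, known for its part in the translation of Hox mRNAs, rested on 178 counts and was not called (0.87, adjusted p = 0.0964), except without the second DMSO library (1.36, adjusted p = 0.029), and its family was higher (0.91, adjusted p = 5.45e-09). Rps27a, made as a fusion with ubiquitin, was not called as a row (-0.16, adjusted p = 0.411) and was higher as a family (0.68, adjusted p = 8.16e-08).

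Both comparisons use the same DMSO libraries, so their values are set side by side without a test. Of the 32 members called with PDGF-BB, 11 were higher in both comparisons (among them Rps27l, Rpl7l1, Rpl12, Rplp2 and Rpsa) and 16 were lower with PDGF-BB and higher with tazemetostat (among them Rplp0, Rplp1, Rps14, Rpl41 and Rpl22). Rpl15 was lower in both, and Rps23 was higher and then lower. A further 35 members were called higher with tazemetostat and were not called with PDGF-BB. Higher calls with tazemetostat thus came to 11 of the 13 members higher with PDGF-BB, 16 of the 19 lower and 35 of the 52 not called. Of all tested members 73.8% were higher with tazemetostat, beside 37.3% of all genes. Such pairs of calls are not given for all genes.

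Against p53n, the tazemetostat libraries had 58 members higher and 10 lower of 84, beside 40.3% and 41.7% of all genes (82% in either direction), at a median of 0.65 (all genes -0.04). After GC and length correction 23 were higher and 22 lower, beside 35% and 43.3% (78.3% in either direction), at a median of 0.00, beside -0.14 for all genes. Of 38 members called in both fits, 27 kept their direction, beside 10243 of 11592 among all genes. Groups did not overlap for 66 of 84, 78.6%, beside 82.2% of all genes. The highest values were 1.62 for Rpl27, 1.46 for Rps27l, 1.46 for Rpl10a, 1.45 for Rps2, 1.37 for Rpl28 and 1.36 for Rpl19, with adjusted p from 2.67e-12 for Rps27l to 1.06e-05 for Rps2. After GC and length correction Rpl19 was not called (0.30, adjusted p = 0.0913). The lowest were Rplp0 (-2.03), Rpl24 (-1.51), Rps13 (-1.38), Rpl5 (-1.34), Rpl15 (-0.97) and Rpl30 (-0.92), all past the threshold. For Rplp0 the family was higher (log2 fold change 0.71 ± 0.08 SE, adjusted p = 1.4e-07), and for Rpl24 likewise (0.56, adjusted p = 2.46e-06). The Rpl5 family was at 0.02 (adjusted p = 0.788), and Rpl30 was higher after GC and length correction (0.41, adjusted p = 0.00337).

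Start sequences were looked up for the 64 members with a RefSeq promoter window, several starts of a gene counting as 1. A C followed by at least 4 pyrimidines and beginning within 5 bases of the start was found in 30 of them, 46.9%, beside 21.2% of 27025 genes with a window. In the 300 bases from 250 before to 50 after the start, read on both strands, CCGGAAG (the core bound by GABPA) was in 40.6% of the members and 9.93% of all genes, GGGCGG (SP1) in 60.9% and 38.2%, AAGATGGC (YY1) in 9.38% and 3.19%, and CACGTG (the E-box bound by MYC) in 9.38% and 8.09%. These matches describe letters, not bound sites. The 30 tested members with a tract had 23 higher and 3 lower with tazemetostat at a median of 0.73, and the 31 without had 23 and 1 at 0.61. After GC and length correction the medians were 0.14 and 0.34. With PDGF-BB the medians were -0.01 with and -0.08 without a tract. Rpl22l1 and Rpl15, lower with tazemetostat, both carry a tract in the windows shown above.

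Genes that act with the members did not all move as they did. Among the other proteins of the ribosome, Rack1, a scaffold on the small subunit, rose with tazemetostat from 754 ± 31.5 to 1768 ± 218 CPM (log2 fold change 1.23 ± 0.08 SE, adjusted p = 8.03e-11, and 1.31 after correction). Fau, made as a fusion with a ubiquitin-like protein, rose too (1.31, adjusted p = 0.000186), but after correction its change was 0.28 (adjusted p = 0.346). Of 15 translation factors and related genes whose mRNAs carry a tract, 3 were higher and 7 lower with PDGF-BB, beside 35.3% and 34% of all genes, and 8 higher and 3 lower with tazemetostat, beside 37.3% and 35.6%. After GC and length correction 2 were higher and 8 lower with PDGF-BB, beside 31.7% and 40% of all genes. With tazemetostat 10 were higher and 2 lower after correction, beside 28.3% and 29.2%. Eif4b had the smallest adjusted p of the 15 with PDGF-BB (1338 ± 43.9 to 733 ± 40.4 CPM, log2 fold change -0.87 ± 0.07 SE, adjusted p = 2.51e-10), and Npm1 with tazemetostat (127 ± 7.32 to 48.5 ± 2.96 CPM, log2 fold change -1.39 ± 0.07 SE, adjusted p = 2.02e-12).

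Of 16 genes that control these mRNAs, 12 were higher and 2 lower with PDGF-BB, 75% beside the 35.3% of all genes, and 9 and 2 after GC and length correction. Larp1, the tract-binding protein, went from 125 ± 6.6 to 347 ± 4.04 CPM (log2 fold change 1.48 ± 0.08 SE, adjusted p = 5.5e-13), Rptor, the mTOR scaffold, from 47.6 ± 4.21 to 166 ± 3.92 (log2 fold change 1.80 ± 0.07 SE, adjusted p = 1.3e-14), and Mycn, a transcription factor that drives ribosome genes, from 3.4, 2.66 and 2.94 to 19.5, 20.8 and 19.8 CPM (log2 fold change 2.73 ± 0.14 SE, adjusted p = 8.2e-13). Myc rose by less (126 ± 11.5 to 152 ± 8.02 CPM, 0.27, adjusted p = 0.00371). With tazemetostat 5 of the 16 were higher and 8 lower, beside 37.3% and 35.6% of all genes, and 6 and 5 after GC and length correction. Larp1 fell to 235 ± 27.1 CPM (log2 fold change -0.56 ± 0.07 SE, adjusted p = 9.35e-07). Of 15 tested chaperone and export factors for ribosomal proteins, 10 were higher and 0 lower with PDGF-BB, beside 35.3% and 34% of all genes, and 9 and 2 after GC and length correction. Grwd1, a chaperone of Rpl3, was among them (1.27, adjusted p = 6.31e-10). With tazemetostat 5 were higher and 7 lower, beside 37.3% and 35.6%, and after GC and length correction 8 were higher and 4 lower.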

How the data were processed

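RNA of 9 libraries in 3 groups was sequenced as paired reads of 150 bases. The authors deposited 1 table of raw counts per gene, made with featureCounts 1.6.3 on the Ensembl 108 annotation of GRCm39, counting exons of properly paired fragments with a minimum mapping quality of 20 and no strand option, per the file headers. Trimmomatic and Subread are named, without versions, per the submitters' processing notes. Reads of a gene and an overlapping antisense gene cannot be told apart in these counts. All columns matched a sample label (0 others).

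Genes passing filterByExpr (17001) were fitted over all groups with edgeR 4.0.16 (TMM, robust quasi-likelihood test, Benjamini-Hochberg adjustment over all genes, threshold 0.05). The SE is the log2 fold change over the root of F. CPM are counts in every 1000000 counts of a library, with the library size multiplied by its TMM factor. GC content, length and copies came from GENCODE M21 (GRCm38) transcripts matched by gene ID, start windows from RefSeq. The GC and length trend was removed as offsets fitted per library with mgcv 1.9.3. Members and lists were chosen with earlier results of these data known. Members named were the paralogues and their parents, members of the structural and disease lists, the 6 highest and lowest log2 fold changes per comparison and the 5 highest and lowest levels per kb, and of other lists the smallest adjusted p. Rps3, Rpl3, Rpl4, Rps2, Rpl29 and any others outside this rule were chosen after their values were seen, as were the copy rows and the 50% division by shared windows. The alternatives were other scalings, DESeq2 1.42.0, no low-count filter, fewer groups, a replicate block, GC and length offsets, no X, Y and MT genes, added pseudogene rows and leaving out each library. Some members and list genes are not reported here.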

Additional observations from a re-analysis of the deposited data

How the results depend on the processing

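Median log2 fold changes of the members are given for PDGF-BB against p53n, tazemetostat against DMSO and tazemetostat against p53n (-0.06, 0.70 and 0.65 as reported). They were -0.21, 0.75 and 0.56 with upper-quartile scaling, -0.14 in the first and 0.56 in the last with total counts, 0.01 in the first and 0.59 in the second without a filter on low counts, and 0.61 in the second with only its 2 groups. Without chromosomes X, Y and MT they were 0.03 and 0.61 in the first and second. With -ps rows added they were 0.81 and 0.77 in the second and last, and with all copies 0.89 and 0.80, with 3 members lower in the second. The differences in share grew to 0.811 and 0.679 percentage points in the second and last with -ps rows. With upper-quartile scaling 35 members were lower in the first, where the median of all genes moved to -0.16.

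With the GC and length trend removed the medians were -0.26, 0.24 and 0.00. In the first 39 members were lower. In the second 44 were called, 39 of them higher. In the last 45 were called, 23 higher and 22 lower. Correlations between same-numbered libraries ran from -0.08 to 0.12, and between differently numbered ones from -0.12 to 0.1. In tazemetostat against DMSO the same-numbered values were 0.12, 0.1 and -0.01. Whether the numbers mark a pairing was not tested. With a replicate block alone the calls were 33, 68 and 69, against 32, 67 and 68. With the replicate block and the trend removed the medians were -0.26, 0.24 and -0.01, 49 members were called in the first (39 lower), 44 in the second (39 higher) and 44 in the last (23 higher and 21 lower).

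Leaving out each library in turn gave medians from -0.08 to 0.08 in the first, 0.65 to 0.75 in the second and 0.61 to 0.72 in the last comparison. The first comparison had 12 to 17 members higher and 12 to 21 lower, the second 57 to 62 higher and 4 to 6 lower, and the last 55 to 59 higher and 8 to 11 lower. The lowest count of 12 lower members and the median of 0.08 in the first came without the third p53n library, where the median of all genes was 0.06. The median of the members in the first lay near 0 and also changed sign in other fits given above. The shares of all genes called without each library are not reported here.

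Directions turned for some members, of which examples are given here. In the last comparison, 27 of 38 members called with and without the trend kept their direction. In the second comparison, with the trend removed without and with the block, Rpl11 was at -0.14 and -0.15, Rpl29 at -0.27 and -0.27, Rpl30 at 0.23 and 0.24, Rpl38 at -0.18 and -0.09, Rps27 at -0.01 and -0.04, Rps27a at 0.27 and 0.25, and Rps6 at -0.55 and -0.55, while Rpl22l1 reached 0.00 with the block. Rpl30 was at 0.41 and 0.41 in the last. With -ps rows Rpl10a was at -0.45 and Rpl3 at -0.52 in the first, and Rpl35a at 0.37 and Rps27a at 0.51 in the second. With all copies Rpl10a was at -0.45 and Rpl3 at -0.52 in the first, Rpl24 at 0.79, Rpl35a at 0.51, Rpl5 at 0.33 and Rps27a at 0.68 in the second, and Rpl24 at 0.56, Rpl5 at 0.02 and Rplp0 at 0.71 in the last. Rps27a ran from -0.37 to 0.03 over the fits without 1 library, the highest without the second tazemetostat library. The cause was not tested. Low counts limit Rpl24, Rpl38 and Rpl32l, each under 200 counts in all.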
